A study of Mus musculus with 12 samples.

Results

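The genes described here are the RANK system, which is the cytokine Tnfsf11 (RANKL), its receptor Tnfrsf11a (RANK) and its decoy receptor Tnfrsf11b (osteoprotegerin), together with 7 genes best known from osteoclasts, the bone-resorbing cells of the myeloid lineage. These 10 genes were chosen by symbol, with their levels in these libraries already known, and each was found once in both deposited gene tables, which share 28008 genes. Bulk RNA-seq covered the gonadal fat depot, as the series title has it, of mice of the C57BL/6N strain, with 3 libraries in each of 4 groups. HFD mice ate a high-fat diet for 18 weeks from 6 weeks of age, and Chow mice ate chow over the same time; no injection is stated for either group. HFD PCN mice ate the high-fat diet and were injected intraperitoneally once a day for 4 days with 50 mg/kg PCN, an activator of the rodent pregnane X receptor. HFD Vehicle mice ate the same diet and received corn oil with 30% DMSO on the same 4 days. The labels name no transgene or mutation in any group.

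When RANKL binds RANK on a myeloid precursor, TRAF adaptors carry the signal to NF-kB and to the transcription factor NFATc1, and co-receptors with an ITAM (a tyrosine-based activation motif) add the calcium signal that NFATc1 needs. The cell then fuses with its neighbours and pumps acid and proteases onto bone. Osteoprotegerin is secreted by stromal cells and holds RANKL away from RANK. Fat holds no bone, but macrophages, which accumulate in the fat of obese mice, share their lineage with osteoclasts and can carry several of the same fusion and lysosomal proteins.

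The 12 libraries held 11090117 to 27408092 counts in genes, and levels are given as CPM, a gene's count scaled to the library's total in its own table. Values set side by side across the tables, which hold 1 comparison each, were not tested. The source label names the duodenum. Fabp4, a fatty acid carrier of adipocytes, stood at 2842 to 7872 CPM in every library, whereas Epcam, an epithelial surface protein, was at most 0.291 CPM and Vil1, villin of the intestinal brush border, at most 2.79 CPM. The library HFD Vehicle 50 stood apart: 10 macrophage markers summed to 902 CPM there, against 5834 and 6235 CPM in HFD Vehicle 23 and 55 and 427 to 1284 CPM in the Chow libraries. Fitted changes between HFD PCN and HFD Vehicle are therefore given with and without it. Values by library follow the order HFD 4, 30 and 38, Chow 8, 17 and 19, HFD PCN 5, 11 and 27, and HFD Vehicle 23, 50 and 55. The share of counts from mitochondrially encoded genes was 7.30% to 29.6% in Chow libraries, 7.85% in HFD Vehicle 50 and 2.30% to 3.47% in the others. CPM of the Chow libraries is lowered accordingly, while the log2 fold changes below come from edgeR with TMM scaling.

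The receptor, the fusion genes, cathepsin K and the V-ATPase subunit stood far higher in HFD fat than in Chow fat, while the ligand was at the edge of detection and Acp5 and Nfatc1 did not follow. Of the 10 genes, 8 passed the filter on low counts, and Tnfsf11 and Oscar did not. At an adjusted p under 0.05 over all genes, 5 of the 8 were higher in HFD (Tnfrsf11a, Ctsk, Atp6v0d2, Dcstamp and Ocstamp), against 29.8% of the 16216 genes tested, and 1 was lower (Nfatc1), against 30%. The same 5 had no overlap between the 3 HFD and the 3 Chow libraries in CPM, as had 42.4% of all tested genes in that direction and 23.1% in the other; with mitochondrial genes left out of the totals these shares were 36.1% and 32.3% of 16201 genes. Because the genes were picked for this pattern, the counts describe them and are no test.

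**Figure D1:**
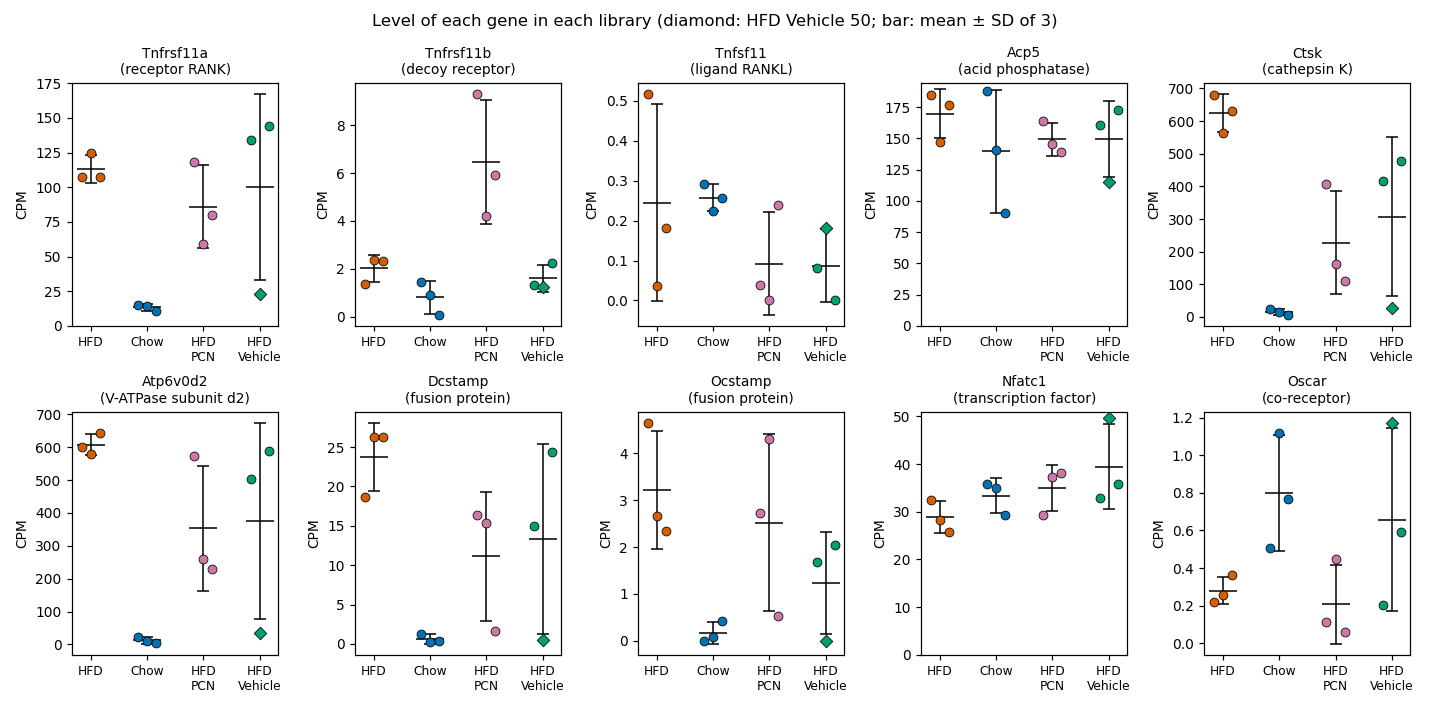
CPM (vertical axes, linear, each with its own scale) of the 10 genes in the 12 libraries by group, with the bar and whiskers at the mean ± SD of 3 libraries and HFD Vehicle 50 as a diamond. Tnfrsf11a, Ctsk, Atp6v0d2, Dcstamp and Ocstamp lie higher in every HFD library than in any Chow library, Acp5 overlaps, and Tnfrsf11b is highest in the 3 HFD PCN libraries.

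Tnfsf11, the ligand (ENSMUSG00000022015, GRCm38 chr14:78277445-78308043, minus strand), was nearly undetected. Its counts were 14, 1 and 3 in HFD libraries and 4, 3 and 3 in Chow libraries. After injection the counts were 1, 0 and 4 in HFD PCN and 2, 2 and 0 in HFD Vehicle libraries, with library 50 holding 2 of these. The HFD and Chow groups overlapped, and 1 HFD library held most of that group's counts. The ratio of summed counts scaled to depth, HFD to Chow, was 0.983, with an exact 95% interval of 0.430 to 2.38 that covers counting error only. A change in the ligand within those bounds was not detectable at this depth. T cells are a known source of RANKL, and Cd3e, a chain of the T cell receptor complex, was at 0.693 to 1.66 CPM in HFD libraries, against 0.769 to 1.42 CPM in Chow libraries. The 9 T and innate lymphoid markers summed to 169 to 184 CPM in HFD, against 17.4 to 26.8 CPM in Chow libraries, with most of the HFD sum from the interleukin receptor Il7r at 155 to 175 CPM.

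Tnfrsf11a, the receptor (ENSMUSG00000026321, chr1:105780718-105847981, plus strand, 10 merged exons), stood at 107, 125 and 107 CPM in HFD libraries, against 15.2, 14.1 and 10.5 CPM in Chow libraries. The 3 HFD libraries lay close together and far above every Chow library. The means were 113 ± 10.2 CPM for HFD, against 13.3 ± 2.45 CPM for Chow (SD, n = 3 each). Their ratio was 8.53-fold, and the fitted log2 fold change was 2.84 ± 0.11 (SE). In bulk tissue, fewer cells of a type and less RNA per cell cannot be told apart, here and in every result below.

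Tnfrsf11b, the decoy (ENSMUSG00000063727, chr15:54250619-54278484, minus strand), was low in both diet groups. It stood at 1.37, 2.37 and 2.34 CPM in HFD libraries, against 1.45, 0.895 and 0.0855 CPM in Chow libraries. The groups overlapped, and the library Chow 19 held 1 count of it. The log2 fold change of 1.06 ± 0.54 (SE), or 1.67 without Chow 8, was not past the threshold. Tnfrsf11a had 78.7, 52.7 and 45.7 counts for each count of Tnfrsf11b in HFD libraries, against 10.4, 15.8 and 123 in Chow libraries, so the ratio of receptor to decoy overlapped between the diets through Chow 19 alone.

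The fusion genes were nearly silent in Chow fat. Dcstamp (ENSMUSG00000022303, chr15:39745930-39760938, plus strand), a membrane protein that osteoclast precursors need to become multinucleated, stood at 18.7, 26.2 and 26.2 CPM in HFD libraries, against 1.31, 0.224 and 0.342 CPM in Chow libraries. Its log2 fold change was 4.97 ± 0.40 (SE), and 6.06 without Chow 8, the Chow library where it was highest. Ocstamp (ENSMUSG00000027670, chr2:165393760-165400405, minus strand), a related protein of the same fusion step, stood at 4.65, 2.66 and 2.34 CPM in HFD libraries, against 0, 0.0746 and 0.427 CPM in Chow libraries. Only 6 counts of Ocstamp were seen in all Chow libraries, against 238 in HFD libraries, and scaled to depth their ratio was 21.7 (counting interval 9.81 to 59.6). Its log2 fold change was 4.06 ± 0.74 (SE), 3.40 without Chow 8 and 6.13 without Chow 19.

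The resorption genes Ctsk and Atp6v0d2 had the highest levels of the set in HFD fat. Ctsk (ENSMUSG00000028111, chr3:95499256-95509362, plus strand) encodes cathepsin K, the collagen-cutting protease of osteoclasts. It stood at 680, 563 and 631 CPM in HFD libraries, against 23.6, 15.9 and 6.75 CPM in Chow libraries, and its log2 fold change was 5.13 ± 0.33 (SE). Atp6v0d2 (ENSMUSG00000028238, chr4:19876841-19922605, minus strand) encodes the d2 subunit of the proton pump that acidifies lysosomes and the space under an osteoclast. It stood at 601, 579 and 642 CPM in HFD libraries, against 24.0, 10.1 and 3.93 CPM in Chow libraries, with a log2 fold change of 5.39 ± 0.48 (SE), or 6.13 without Chow 8. For both genes the lowest HFD library was more than an order of magnitude above the highest Chow library.

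Acp5, tartrate-resistant acid phosphatase and the usual stain for osteoclasts (ENSMUSG00000001348, chr9:22126727-22135711, minus strand), did not share this pattern. It stood at 185, 147 and 177 CPM in HFD libraries, against 188, 141 and 89.9 CPM in Chow libraries, so the groups overlapped and the single highest value was in Chow. The means were 170 ± 19.8 CPM for HFD, against 140 ± 49.0 CPM for Chow (SD, n = 3 each). The log2 fold change was 0.06 ± 0.18 (SE), and its sign turned when Chow 19 was left out (-0.07) and was near 0 without HFD 4. Another gene, 6530413G14Rik, covers 6.75% of the exon bases of Acp5, so a small share of its reads is uncertain.

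RefSeq windows of the 250 bases before a start site (GRCm38.p6) were found for 5 of the 10 genes. Those of Tnfrsf11a and Ctsk, which were far higher in HFD, and the most upstream of 3 windows of Acp5, which overlapped between the diets, are printed to set their starts side by side. They run 5' to 3' on the gene's own strand, and capitals mark GAGGAA, a core of the sites bound by the myeloid factor PU.1, or its reverse complement TTCCTC.
Tnfrsf11a, chr1:105780473-105780722, plus strand: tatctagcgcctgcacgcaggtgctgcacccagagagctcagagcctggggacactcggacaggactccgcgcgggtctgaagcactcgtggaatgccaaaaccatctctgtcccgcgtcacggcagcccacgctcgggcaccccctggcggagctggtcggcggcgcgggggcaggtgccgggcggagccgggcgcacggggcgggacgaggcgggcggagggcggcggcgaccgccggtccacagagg
Ctsk, chr3:95498960-95499209, plus strand: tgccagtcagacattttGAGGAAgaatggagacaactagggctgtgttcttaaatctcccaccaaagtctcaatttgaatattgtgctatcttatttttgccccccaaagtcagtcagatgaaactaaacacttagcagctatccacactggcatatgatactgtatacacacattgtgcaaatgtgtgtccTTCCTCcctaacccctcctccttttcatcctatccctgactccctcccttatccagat
Acp5, chr9:22135747-22135996, minus strand: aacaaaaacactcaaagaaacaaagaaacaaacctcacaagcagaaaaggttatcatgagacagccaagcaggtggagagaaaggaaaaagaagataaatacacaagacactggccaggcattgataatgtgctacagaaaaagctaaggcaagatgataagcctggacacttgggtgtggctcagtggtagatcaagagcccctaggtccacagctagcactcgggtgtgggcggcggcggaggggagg
The windows were searched on both strands for GAGGAA, for the AP-1 site TGANTCA, for the E-boxes CACGTG and CATGTG read by MITF and its relatives, and for TATAAA. The 2 matches in Ctsk begin 233 and 58 bases before the start, and 23.3% of 32851 windows hold GAGGAA. None of the 5 motifs was in the windows of Tnfrsf11a and Acp5 shown; the others are in 6.75% (TGANTCA), 6.02% (CACGTG), 12.3% (CATGTG) and 12.4% (TATAAA) of all windows. Of the windows not printed, that of Oscar held TTCCTC and CACATG, the reverse complement of CATGTG, 237 and 6 bases before the start. Another Acp5 window held CACATG at 90 bases, and that of Tnfsf11 held TTTATA, the reverse complement of TATAAA, at 32 bases. Base composition differed between the starts. G and C make up 73.6% of the Tnfrsf11a window, with 31 CG dinucleotides, and 43.2% of the Ctsk window, with 0. The printed Acp5 window has 48%, with 4, and the other Acp5 windows have 54.4%, with 5, and 61.2%, with 12. The median of all windows was 52.4% with 6 CG dinucleotides. A match is a description of letters, and nothing about binding was measured.

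Per kilobase of merged exon, which allows genes to be set against each other, the order of levels in HFD libraries began with Ctsk at 413 ± 38.8 CPM per kilobase, Atp6v0d2 at 224 ± 11.9, Acp5 at 83.6 ± 9.74 and Tnfrsf11a at 18.9 ± 1.71 (SD, n = 3 each). These neighbours did not overlap in their spread. In Chow libraries the order was led by Acp5, at 68.8 ± 24.1 CPM per kilobase, ahead of Ctsk at 10.2 ± 5.59. Tnfsf11 and Oscar shared the bottom of the order in HFD libraries, at 0.109 ± 0.110 and 0.151 ± 0.0392 CPM per kilobase, and did not differ beyond their spread. Between these ends came Dcstamp at 8.91 ± 1.63, Nfatc1 at 3.87 ± 0.453, Ocstamp at 0.880 ± 0.342 and Tnfrsf11b at 0.719 ± 0.203 CPM per kilobase in HFD libraries, and the last pair overlapped. HFD PCN and HFD Vehicle libraries began in the HFD order, with Ctsk, Atp6v0d2, Acp5 and Tnfrsf11a, but with wide spread: Ctsk averaged 150 ± 104 CPM per kilobase in HFD PCN and 203 ± 161 in HFD Vehicle libraries, or 295 ± 28.8 in HFD Vehicle without library 50 (n = 2).

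Nfatc1, the transcription factor that RANK signalling induces in osteoclast precursors (ENSMUSG00000033016, chr18:80606205-80713071, minus strand), was not higher in HFD fat. It stood at 32.5, 28.4 and 25.8 CPM in HFD libraries, against 35.9, 34.99 and 29.2 CPM in Chow libraries, which overlapped. With mitochondrial genes left out of the totals the values were 33.4, 29.1 and 26.4 CPM in HFD, against 38.7, 39.1 and 41.5 CPM in Chow, and no longer overlapped. The log2 fold change was -0.46 ± 0.12 (SE).

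Oscar, a co-receptor that signals through the ITAM adaptor encoded by Fcer1g (ENSMUSG00000054594, chr7:3609813-3616157, minus strand), was barely detected. Its counts were 6, 7 and 6 in HFD libraries and 7, 15 and 9 in the shallower Chow libraries, or 0.221, 0.255 and 0.360 CPM against 0.509, 1.12 and 0.769 CPM. The groups did not overlap and HFD was the lower one, and summed counts scaled to depth gave a ratio of 0.335 (counting interval 0.179 to 0.612).

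**Figure D2:**
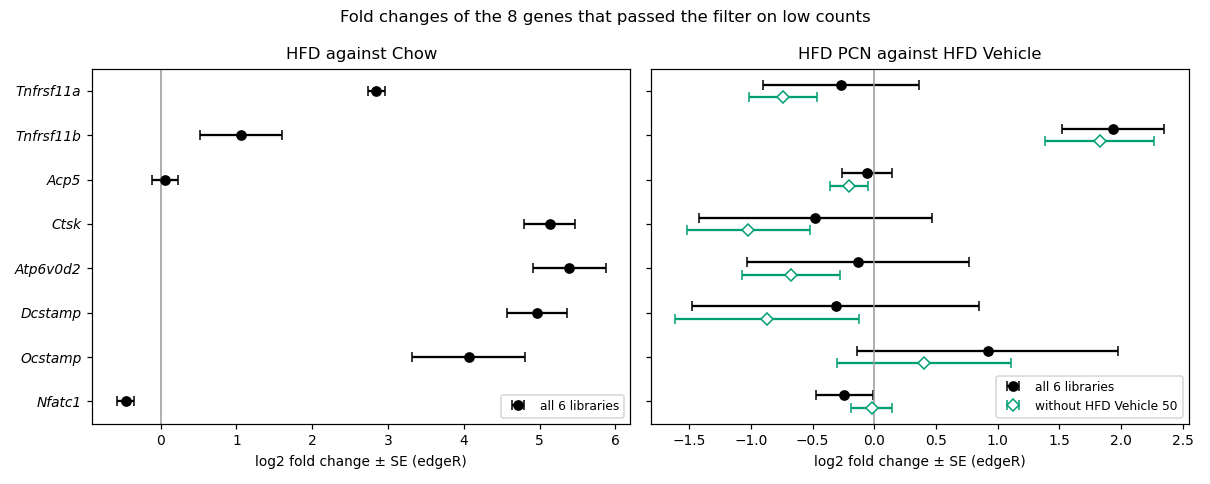
Log2 fold change ± SE from edgeR (horizontal axes) of the 8 genes that passed the filter, for HFD against Chow (left) and HFD PCN against HFD Vehicle (right, with open diamonds for the fit without HFD Vehicle 50). With diet, 5 genes lie between 2.84 and 5.39; with PCN, Tnfrsf11b at 1.93 is farthest from 0.

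Macrophage markers moved with diet in the same direction. The 10 markers, among them Lyz2 (lysozyme), Adgre1 (F4/80) and Mrc1 (the mannose receptor), summed to 6905 ± 356 CPM in HFD libraries and 826.5 ± 431.5 CPM in Chow libraries (SD, n = 3 each). Of the 10, 9 were higher in HFD by the test over all genes, and the clearance receptor Mertk did not pass. Set against the sum, the receptor overlapped between the diets: Tnfrsf11a had 16.5 ± 2.15 CPM per 1000 CPM of macrophage markers in HFD and 18.3 ± 6.4 in Chow. Ctsk had 90.3 ± 4.70 in HFD and 18.3 ± 2.43 in Chow on the same scale, and Atp6v0d2 had 88.1 ± 6.29 in HFD and 13.7 ± 4.76 in Chow. Dcstamp had 3.46 ± 0.783 in HFD and 0.704 ± 0.374 in Chow. These 3 genes lay higher in HFD on this scale because they rose more with diet than the marker sum did. All were picked with their levels known, so the ratios describe them and are no test. Acp5 lay the other way, at 24.5 ± 2.04 in HFD and 180 ± 32.3 in Chow, as did Nfatc1, at 4.17 ± 0.334 in HFD and 47.3 ± 20.3 in Chow. Ocstamp, with few counts in Chow, overlapped, at 0.461 ± 0.154 in HFD and 0.366 ± 0.552 in Chow. The part of macrophage number in these differences was not tested.

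**Figure D3:**
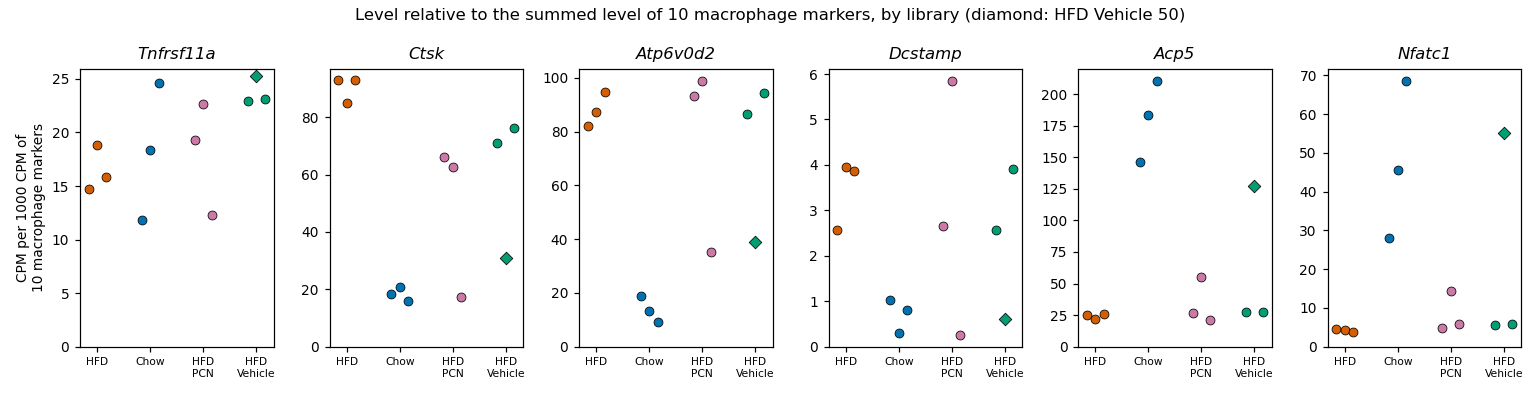
CPM per 1000 CPM of 10 summed macrophage markers (vertical axes from 0) of 6 genes in each library by group, with HFD Vehicle 50 as a diamond. Tnfrsf11a spans 14.7 to 18.8 in HFD and 11.8 to 24.6 in Chow libraries, Ctsk, Atp6v0d2 and Dcstamp are higher in HFD, and Acp5 and Nfatc1 are higher in Chow.

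Defining markers of bone-forming cells were at or near 0. Bglap (osteocalcin) was at most 0.108 CPM, Sp7 (osterix) at most 0.171 CPM and Dmp1 at most 0.0817 CPM in any library. Runx2, which other mesenchymal and immune cells also use, was at 3.33 to 16.4 CPM, and Alpl, on the same list, was at 1.56 to 7.27 CPM. Their log2 fold changes for diet went opposite ways, at 0.90 for Runx2 and -1.61 for Alpl. The 6 of 10 listed markers found in both tables summed to 11.1 to 11.8 CPM in HFD libraries and 5.64 to 11.3 CPM in Chow libraries, mostly from Runx2 and Alpl. Calcr, the calcitonin receptor of mature osteoclasts, was named after its values were seen: it had 0 counts in every HFD library and 1 count in all in Chow libraries.

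Beyond the set, 108 genes on 9 lists covered the rest of the pathway, and 101 of them passed the filter. By edgeR's quasi-likelihood test with Benjamini-Hochberg adjustment over all 16216 genes, 52 were higher in HFD, 20 were lower and 29 did not pass, where 29.8% of all tested genes were higher and 30% lower. Each list count below is to be read against these shares. The lists were chosen with earlier results of these data known, so the counts describe them and are no test. The median log2 fold change of the 101 genes was 0.46, against -0.03 over all tested genes. By list, ITAM co-stimulation, acid secretion and fusion genes were mostly higher, and the TRAF and NF-kB machinery was divided. Because macrophage markers were higher in the same libraries, each list count stands beside that difference, whose part was not tested.

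RANK signalling had 23 tested genes, of which 8 were higher in HFD and 4 lower while 11 missed the threshold (median log2 fold change 0.10). That share of higher genes is near the 29.8% of all tested genes. Akt1, a survival kinase, stood at 174 ± 5.99 CPM in HFD libraries, against 74.5 ± 10.7 CPM in Chow libraries, with a log2 fold change of 0.97 ± 0.10 (SE, adjusted p = 8.07e-05). Traf5 rose by 1.28 ± 0.17 (adjusted p = 0.000356) and Tab1, a partner of the kinase TAK1, by 0.75 ± 0.12 (adjusted p = 0.000959) on the log2 scale. Mapk8, the stress kinase JNK1, was lower, at 30.9 ± 2.78 CPM in HFD libraries, against 41.4 ± 5.15 CPM in Chow libraries (adjusted p = 0.000885). The scaffold Gab2 (log2 fold change 0.11 ± 0.12) and the AP-1 subunit Jun (-0.76 ± 0.37, or -0.13 without Chow 17) did not pass. Traf6, the adaptor that RANK depends on most, is outside the naming rule and was looked up after its values were seen: it stood at 32.9 ± 1.06 CPM in HFD libraries, against 44.4 ± 19.0 CPM in Chow libraries (log2 fold change -0.68 ± 0.24, adjusted p = 0.0353).

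ITAM co-stimulation had 12 tested genes, of which 11 were higher in HFD and 1 lower while 0 missed the threshold (median 1.97). Trem2, a lipid-sensing receptor, stood at 438 ± 6.51 CPM in HFD libraries, against 8.29 ± 5.91 CPM in Chow libraries, with a log2 fold change of 5.51 ± 0.39, or 6.13 without Chow 8 (adjusted p = 1.9e-05). Fcer1g, the adaptor that Oscar pairs with, stood at 164 ± 9.003 CPM in HFD libraries, against 13.5 ± 5.74 CPM in Chow libraries (3.38 ± 0.20, adjusted p = 1.12e-05). The signalling enzymes Plcg2 and Btk rose by 1.96 ± 0.13 and 2.81 ± 0.21 on the log2 scale (adjusted p = 1.41e-05 and 2.24e-05). The lower gene, named after its values were seen, was Ppp3cb, a calcineurin subunit, at 48.5 ± 2.35 CPM in HFD libraries, against 53.8 ± 1.87 CPM in Chow libraries (adjusted p = 0.0143).

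The CSF1 axis and transcription factors had 11 tested genes, of which 5 were higher in HFD and 1 lower while 5 missed the threshold (median 0.18). Spi1, which encodes PU.1, rose by 3.72 ± 0.22 on the log2 scale (adjusted p = 1.15e-05), and Tfec and Mitf, of the MITF family, by 3.10 ± 0.30 and 1.5 ± 0.14 (adjusted p = 7.49e-05 and 6.52e-05). Csf1r, the receptor for the macrophage growth factor CSF1, rose by 2.16 ± 0.24 (adjusted p = 0.000137); 15.1% of its exon bases are shared with another gene. Its ligand Csf1 did not pass, at 52.8 ± 0.865 CPM in HFD libraries, against 50.3 ± 13.4 CPM in Chow libraries, nor did the AP-1 member Fosl2 (-0.32 ± 0.16). Known inhibitors of osteoclast formation were split, with 4 of 11 higher, 5 lower and 2 not passing (median -0.10). Irf8, a transcription factor that restrains osteoclast formation, rose by 1.70 ± 0.14 on the log2 scale (adjusted p = 3.15e-05). Id2 rose by 2.52 ± 0.27 and Id3 fell, at -1.11 ± 0.11 (adjusted p = 0.000122 and 7.54e-05); both encode inhibitors of helix-loop-helix factors. Cyld (-0.10 ± 0.11) and Tnfaip3 (0.07 ± 0.19), which trim ubiquitin chains, did not pass.

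Acid secretion and resorption had 13 tested genes, of which 11 were higher in HFD and 0 lower while 2 missed the threshold (median 1.09). Tcirg1, the a3 subunit of the proton pump, stood at 514 ± 41.2 CPM in HFD libraries, against 61.7 ± 6.86 CPM in Chow libraries, with a log2 fold change of 2.80 ± 0.12 (adjusted p = 5.36e-06). Atp6v1c1, another pump subunit, rose by 1.99 ± 0.13, the chloride exchanger Clcn7 by 1.74 ± 0.12 and the membrane protease Mmp14 by 2.30 ± 0.20 (adjusted p = 1.33e-05, 1.59e-05 and 3.93e-05). Car2, the carbonic anhydrase that supplies protons in osteoclasts, did not pass, at 3.81 ± 0.162 CPM in HFD libraries, against 3.70 ± 2.42 CPM in Chow libraries, and neither did the vesicle adaptor Plekhm1 (0.20 ± 0.13).

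Cell fusion had 9 tested genes, of which 6 were higher in HFD and 1 lower while 2 missed the threshold (median 1.79). Adam8, a membrane metalloprotease, stood at 1031 ± 19.3 CPM in HFD libraries, against 24.4 ± 14.3 CPM in Chow libraries (log2 fold change 5.20 ± 0.34, adjusted p = 1.52e-05). Sirpa rose by 3.20 ± 0.17, the hyaluronan receptor Cd44 by 3.08 ± 0.23 and the integrin chain Itgav by 1.79 ± 0.14 (adjusted p = 7.6e-06, 2.24e-05 and 2.82e-05). Cd47, the partner of Sirpa, did not pass (0.22 ± 0.10), nor did the tetraspanin Cd81 (-0.27 ± 0.16). The lower gene, outside the naming rule and looked up after its values were seen, was Sh3pxd2a. It stood at 252 ± 15.05 CPM in HFD libraries, against 869 ± 152 CPM in Chow libraries (-2.06 ± 0.20, adjusted p = 7.9e-05).

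The other osteoclast markers had 6 tested genes, of which 4 were higher in HFD and 2 lower while 0 missed the threshold (median 2.65). Tm4sf19 stood at 132 ± 13.5 CPM in HFD libraries, against 2.16 ± 1.76 CPM in Chow libraries (5.68 ± 0.36, or 6.48 without Chow 8, adjusted p = 1.31e-05), and Ckb, brain-type creatine kinase, at 492 ± 96.7 CPM in HFD libraries, against 18.8 ± 6.61 CPM in Chow libraries (4.48 ± 0.22, adjusted p = 6.62e-06). Siglec15, a receptor that pairs with ITAM adaptors, had 504 counts in HFD and 2 in Chow libraries, both in Chow 8, or 138 times as many per unit of depth (counting interval 37.9 to 1140), with an adjusted p of 2.69e-05. Itgb3, the integrin chain of the osteoclast sealing zone, rose by 0.82 ± 0.13 (adjusted p = 0.000867). The 2 lower genes, outside the naming rule and looked up after their values were seen, were the gelatinase Mmp9, at 4.15 ± 0.987 CPM in HFD libraries, against 6.06 ± 2.52 CPM in Chow libraries (adjusted p = 0.0419), and the sodium-proton exchanger Slc9b2, at 2.92 ± 0.453 CPM in HFD libraries, against 7.29 ± 2.79 CPM in Chow libraries (adjusted p = 0.000893).

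**Figure D4:**
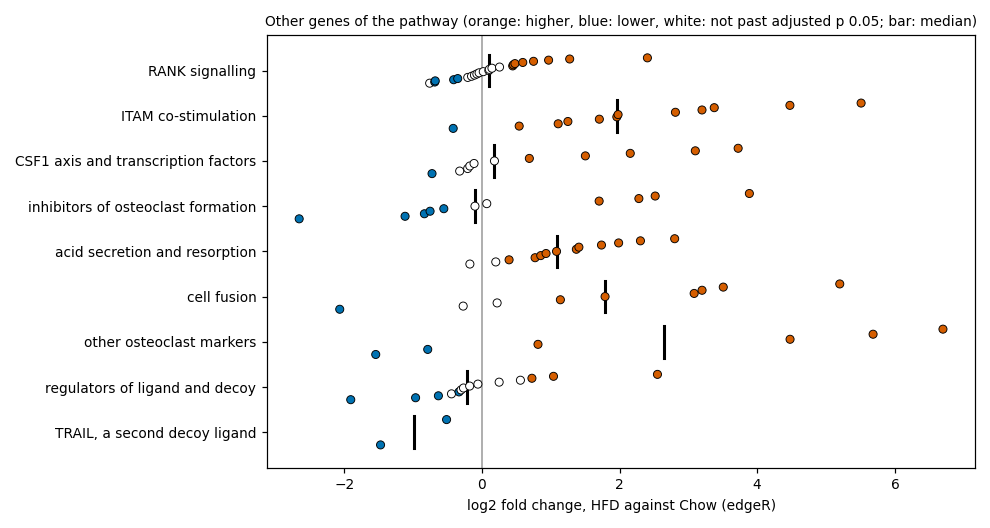
Log2 fold change of HFD against Chow from edgeR (horizontal axis) for the 101 tested genes on 9 lists, with orange points higher, blue points lower and white points not past an adjusted p of 0.05, and a bar at each list's median. Medians run highest for the other osteoclast markers (2.65) and ITAM co-stimulation (1.97) and are near 0 for RANK signalling (0.10).

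Genes known to set the ligand and the decoy in stromal cells had 14 tested members, of which 3 were higher in HFD and 4 lower while 7 missed the threshold (median -0.22). Tgfb1 rose by 1.04 ± 0.12 and Ctnnb1, which encodes beta-catenin and shares 15.1% of its exon bases with another gene, by 0.73 ± 0.13 (adjusted p = 0.000168 and 0.00142). The Wnt co-receptor Lrp5 was lower, at 49.5 ± 1.42 CPM in HFD libraries, against 155 ± 27.0 CPM in Chow libraries (-1.90 ± 0.13, adjusted p = 1.89e-05), as was Wnt5a (-0.96 ± 0.13, adjusted p = 0.000439). Il6st (-0.06 ± 0.13), the shared receptor chain of the interleukin-6 family, and Lrp6 (-0.18 ± 0.14) did not pass. Osteoprotegerin also binds the death ligand TRAIL, and both genes of that pair were lower in HFD: Tnfrsf10b, the TRAIL receptor, stood at 5.96 ± 0.986 CPM in HFD libraries, against 13.9 ± 4.16 CPM in Chow libraries (adjusted p = 0.000456). Tnfsf10, TRAIL itself, stood at 7.40 ± 0.917 CPM in HFD libraries, against 8.72 ± 0.452 CPM in Chow libraries (adjusted p = 0.0493), a call that most alternative settings ended.

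PCN was given only to mice on the high-fat diet, and 0 of 16563 genes (0%) passed an adjusted p of 0.05 between HFD PCN and HFD Vehicle by edgeR, with 281 at an unadjusted p under 0.05 and 1 past the threshold by DESeq2. None of the 8 tested genes of the set and 0 of the 101 tested pathway genes passed. Of the 8, 1 had no overlap between the groups with PCN higher, against 5.06% of all genes, and 0 had none with PCN lower, against 1.76%. That gene was Tnfrsf11b.

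Tnfrsf11b, the decoy, stood at 9.30, 4.19 and 5.90 CPM in HFD PCN libraries, against 1.31, 1.26 and 2.26 CPM in HFD Vehicle libraries. All 3 PCN libraries were above the highest of the other 9 libraries of the study, 2.37 CPM in HFD 30. Means of 6.46 ± 2.60 CPM in HFD PCN and 1.61 ± 0.566 CPM in HFD Vehicle libraries (SD, n = 3 each) gave a 4.01-fold ratio and a log2 fold change of 1.93 ± 0.42 (SE) that was 1.83 ± 0.44 without HFD Vehicle 50. Tnfrsf11a had 12.7, 14.2 and 13.5 counts for each count of Tnfrsf11b in HFD PCN libraries, against 102, 18.1 and 63.6 in HFD Vehicle libraries, of which 18.1 was in library 50. The 3 PCN ratios were close together and lower than each vehicle ratio.

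Markers of mesothelium, the cell layer that covers visceral fat, were highest in the HFD PCN libraries and in HFD Vehicle 50. The decoy was high only in the former. Its order by library was that of the markers within Chow and differed from it within the other groups. The 8 markers, among them Muc16, Wt1 and Upk3b, summed to 131, 119 and 66.0 CPM in HFD PCN libraries, against 25.8, 82.1 and 11.4 CPM in HFD Vehicle libraries, 34.7, 37.9 and 8.53 CPM in HFD libraries and 29.3, 18.9 and 7.43 CPM in Chow libraries. Of the 8, 0 passed the test between HFD PCN and HFD Vehicle, and 3 had no overlap with PCN higher. HFD Vehicle 50, with 82.1 CPM of these markers, had 1.26 CPM of Tnfrsf11b, while HFD PCN 27, with 66.0 CPM, had 5.90 CPM. HFD PCN 11, with 119 CPM of markers, had the lowest decoy level of its group, 4.19 CPM. HFD 38 and HFD Vehicle 55, with 8.53 and 11.4 CPM of markers, had 2.34 and 2.26 CPM of Tnfrsf11b. Adipose progenitor markers summed to 1395 to 1486 CPM in HFD PCN and 549 to 1487 CPM in HFD Vehicle libraries. The part of either cell type in the decoy's level was not tested.

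**Figure D5:**
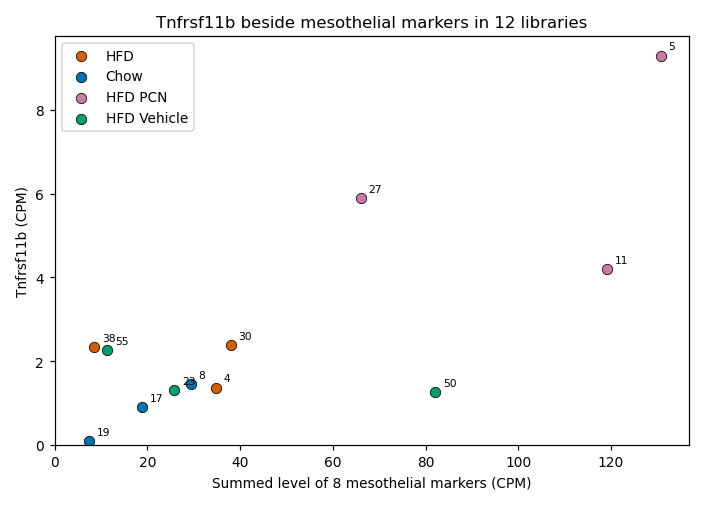
Tnfrsf11b in CPM (vertical axis) against the summed CPM of 8 mesothelial markers (horizontal axis) in the 12 libraries, coloured by group and numbered by library. The 3 HFD PCN libraries lie highest for the gene, at 4.19 to 9.30 CPM, and HFD Vehicle 50 lies at 82.1 CPM of markers with 1.26 CPM of the gene.

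The other genes overlapped between the injected groups. Tnfrsf11a stood at 119, 59.3 and 79.9 CPM in HFD PCN libraries, against 134, 22.8 and 144 CPM in HFD Vehicle libraries, where the low value was library 50. Its log2 fold change was -0.27 ± 0.63 (SE), and -0.74 ± 0.28 without that library, when every PCN library was below both vehicle libraries. Ctsk stood at 406, 164 and 111 CPM in HFD PCN libraries, against 415, 27.9 and 477 CPM in HFD Vehicle libraries. Its log2 fold change was -0.48 ± 0.95, -1.02 ± 0.50 without library 50 and -1.20 without HFD PCN 5. With library 50 left out, every PCN library was below both vehicle libraries for Ctsk too, though HFD PCN 5 only narrowly. Atp6v0d2 stood at 573, 259 and 228 CPM in HFD PCN libraries, against 504, 34.99 and 589 CPM in HFD Vehicle libraries (-0.13 ± 0.90, and -0.68 ± 0.40 without library 50). HFD Vehicle 50 was above the Chow libraries for each of these genes, but far nearer to them than to the other vehicle libraries. The macrophage markers summed to 6140, 2619 and 6485 CPM in HFD PCN libraries, against 5834, 902 and 6235 CPM in HFD Vehicle libraries, and their part in these values was not tested.

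The library HFD PCN 27 had macrophage markers at 6485 CPM, close to the 6628 to 7306 CPM of HFD libraries, but low fusion genes. The mix within that sum differed, with single markers both above and below the HFD libraries. Mrc1 stood at 1055 CPM in HFD PCN 27, against 643 to 710 CPM in HFD libraries. Cd68, on the same list, stood at 301 CPM, against 590 to 614 CPM. Dcstamp stood at 16.3, 15.3 and 1.67 CPM in HFD PCN libraries, with the lowest value in library 27, against 15.0, 0.541 and 24.4 CPM in HFD Vehicle libraries (-0.31 ± 1.17, -0.87 ± 0.75 without library 50 and 0.46 without library 55). Ocstamp stood at 2.73, 4.30 and 0.536 CPM in HFD PCN libraries, against 1.67, 0 and 2.05 CPM in HFD Vehicle libraries (0.92 ± 1.06, 0.40 ± 0.70 without library 50 and 0.31 without HFD PCN 11). Relative to 1000 CPM of macrophage markers, Ctsk in HFD PCN 27 was at 17.2, within the Chow range of 15.8 to 20.7, while the other 2 PCN libraries were at 62.5 and 66.2. Acp5 stood at 164, 145 and 139 CPM in HFD PCN libraries, against 161, 115 and 173 CPM in HFD Vehicle libraries (-0.06 ± 0.20, and -0.20 ± 0.15 without library 50). Nfatc1 stood at 29.4, 37.3 and 38.2 CPM in HFD PCN libraries, against 32.9, 49.8 and 35.8 CPM in HFD Vehicle libraries (-0.24 ± 0.23, and -0.02 ± 0.16 without library 50). Oscar had 3, 8 and 1 counts in HFD PCN and 5, 13 and 11 counts in HFD Vehicle libraries, of which 13 were in library 50.

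The genes whose pattern was most like that of each RANK system gene were found by the root-mean-square difference of centred log2 CPM over the 12 libraries, among 12933 genes. For Tnfrsf11a these were Slfn10-ps (0.12), Efhd2 (0.14), Kcnk13 (0.15), Sh3bp2 (0.16) and Evl (0.17), where the receptor itself varied by 1.38 around its mean, and 3 of the 5 were found again without HFD Vehicle 50. Efhd2 stood at 199 ± 5.56 CPM in HFD, 23.8 ± 6.96 CPM in Chow, 149 ± 45.6 CPM in HFD PCN and 150 ± 96.5 CPM in HFD Vehicle libraries (SD, n = 3 each), with 39.0 CPM in library 50. For Tnfrsf11b the nearest were Myrf (0.61), Aldh1a2 (0.65), C3 (0.66), Mrc2 (0.69) and Myo5b (0.69), with 2 of the 5 found again without library 50 and 1 at a prior count of 0.5. For Tnfsf11 they were Abhd3 (0.57), Klhl4 (0.58), Cxcl9 (0.58), Dusp28 (0.59) and Pla2g2d (0.60), not far below its own spread of 0.78, which rests on a few counts; 3 of these 5 were found again without library 50 and 2 at a prior count of 0.5. The libraries share their groups and their depth, and no test was made of these likenesses.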

How the data were processed

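RNA-seq of mouse gonadal fat was analysed from 2 deposited tables of whole-number counts per gene, 1 for HFD and Chow and 1 for HFD PCN and HFD Vehicle. For the authors' deposited counts, the submitters' processing notes name HISAT2, HTSeq, DESeq2 and the build GRCm38 (mm10), with no versions. Strand handling was not given in the sources used here. The fold changes and p-values in those tables were not used here. Groups follow the labels, and each library carries its own number, so p-values measure the spread between libraries, taken to be mice.

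CPM is a gene's count over its library's total. Genes kept by filterByExpr were fitted with edgeR 4.0.16 (TMM scaling, quasi-likelihood test, Benjamini-Hochberg adjustment at 0.05) in R 4.3.3, separately for each table, and the fit was checked on simulated data. SE is the log2 fold change over the square root of its F statistic. Exact 95% intervals on counts cover counting error only. Coordinates and exon lengths are those of GENCODE release M21 (GRCm38), and upstream windows are from RefSeq.

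The 10 genes and the lists were chosen with earlier results of these data known, so no p is given for the 10 and the list counts are no test. Adjusted p-values of named list genes are those of the fit over all genes. Named pathway genes are up to 4 passing genes per list with the smallest p for diet and up to 2 not passing with the highest mean CPM. A gene that this rule names is not reported here. Named likenesses are the 5 nearest genes with a mean of at least 1 CPM, at a prior count of 2. DESeq2 1.42.0 and other scalings, filters and left-out libraries were tried as alternatives.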

Additional observations from a re-analysis of the deposited data

How the results depend on the processing

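The count of genes called for diet, 9699, ranged from 7953 to 10889 over all alternatives, and that of pathway genes from 60 to 74. Between HFD PCN and HFD Vehicle edgeR called 0 genes in each setting and with each library left out; DESeq2 called 1, and 44 without HFD Vehicle 50, an alternative chosen after seeing the data. The cause was not tested. Leaving out Chow 8 moved the fitted diet fold changes of Tnfrsf11b, Atp6v0d2, Dcstamp, Ocstamp, Trem2 and Tm4sf19 by over 1.5 times, as given above. That of Siglec15, whose only Chow counts were in Chow 8, moved from 6.70 to 10.01 on the log2 scale. Chow levels of Nfatc1 were 37.8 CPM with TMM over 12 libraries and 39.8 CPM without mitochondrial genes. Without HFD Vehicle 50 the PCN fold changes of Tnfrsf11a, Ctsk, Atp6v0d2 and Dcstamp moved downward, each by less than its SE with that library kept. Those of Tnfrsf11a and Ctsk then stood at -0.74 ± 0.28 and -1.02 ± 0.50 (log2, SE). Depth limits Tnfsf11, Oscar and Ocstamp. No paired analysis was possible because the libraries carry unique numbers that no other group shares.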
